A study of Homo sapiens with 4 samples.

Results

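The genes described here carry iron into cells, store it, release it and sense it. They were chosen by symbol, and of 10 listed genes 8 had a named transcript probe set on the array (TFRC, TFR2, STEAP3, SLC11A2, SLC40A1, FTL, NCOA4 and ACO1), among 20893 transcript probe sets and 17687 named genes in all. The other 2, FTH1 and IREB2, are not analysed here, because the annotation used names no probe set for them. Each of the 8 genes had 1 probe set.

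The RNA came from K562 cells, a human chronic myeloid leukemia line that makes embryonic and fetal globins and can be pushed along the erythroid path by hemin, an oxidized form of heme that itself carries iron. Both groups were the same line in the same medium with fetal calf serum: undifferentiated cells at 0 h, which had no hemin, and cells kept for 24 h in 50 µM hemin. Total RNA was read on Human Clariom S arrays, a 1-colour platform on which short probes are grouped into probe sets, with 2 arrays per time point labelled as biological replicates. Whether the replicates of a time point were grown apart is not given in the labels or methods, and the p-values therefore cover array-to-array spread, which may be technical. By the methods, hemin was given together with the vehicle DMSO, and no source used here says whether the 0 h cells had it. No array holds cells kept for 24 h without hemin, so hemin, its vehicle and time in culture cannot be told apart.

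Erythroid cells take up iron mainly as iron bound to transferrin. The transferrin receptor carries it into endosomes, where the iron is reduced and passed to the cytosol, to be used for heme, stored in ferritin or exported by ferroportin. The iron regulatory proteins IRP1 and IRP2 bind RNA hairpins called iron-responsive elements when iron is scarce. Bound near the start of an mRNA, as in the ferritins and ferroportin, they block translation, and bound near the end of the TFRC mRNA they protect it from decay. Arrays read RNA only, so control at the step of translation is not seen in these values.

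The sequences around the transcription start are shown first, because the results turn on 4 of these genes: SLC40A1, FTL and STEAP3, which had the smallest p-values of the 8, and TFRC, the main iron receptor. They are the 100 bases before the start, 5′ to 3′ on the strand of the gene, from RefSeq in the build GRCh38.p14. Capitals mark GGGCGG (Sp1 box), TATAA (TATA core) and ACGTG (core of the hypoxia response element), each on either strand, and none of the marked letters overlap.
SLC40A1, chr2:189580787-189580886, minus strand: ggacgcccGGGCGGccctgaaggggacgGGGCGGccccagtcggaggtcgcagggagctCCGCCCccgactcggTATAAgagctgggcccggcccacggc
FTL, chr19:48965209-48965308, plus strand: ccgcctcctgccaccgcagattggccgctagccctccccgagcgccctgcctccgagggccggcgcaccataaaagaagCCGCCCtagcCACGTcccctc
STEAP3, chr2:119223734-119223833, plus strand: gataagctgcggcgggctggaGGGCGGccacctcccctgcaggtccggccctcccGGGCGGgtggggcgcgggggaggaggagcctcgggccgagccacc
TFRC, chr3:196082091-196082190, minus strand: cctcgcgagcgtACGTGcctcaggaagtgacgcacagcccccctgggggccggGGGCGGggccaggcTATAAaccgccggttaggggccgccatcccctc
SLC40A1 and TFRC have the letters TATAA, 26 and 33 bases before the start, while the windows of FTL and STEAP3 do not. Only these exact letters were searched, and the FTL stretch holds the similar letters cataaaag.

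The same motifs were searched on both strands of the 250 bases before each start, and 8 of the 10 listed genes have at least 1 such window in the table used (13 windows, with IREB2 among them and without TFR2 and FTH1). GGGCGG was found in at least 1 window of all 8, and in 42.6% of all 35116 windows. For SLC11A2 it was in 1 of 4 windows, and for NCOA4 and IREB2 in 1 of 2 each. A count of genes is therefore not on the same unit as a share of windows. ACGTG was found in the only windows of TFRC and FTL, and in 18.5% of all windows. TATAA was found in the only windows of SLC40A1 and TFRC, in 1 of 4 of SLC11A2, and in 18.9% of all windows. The GATA motif AGATAA, read by the erythroid factor GATA1, was found in 1 of the 4 windows of SLC11A2 and in 9.17% of all windows. The antioxidant response element TGACNNNGC (10.9% of all windows) and the AP-1 motif TGACTCA (4.2%) were found for 0 of the 8 genes. These matches are descriptions of letters in a short window, not sites.

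A match to the hairpin of an iron-responsive element was found in FTL. A hairpin was searched on the sense strand of the first 50 bases after each start: an unpaired C, a stem of 5 base pairs with G-U pairs allowed, and the loop CAGTG followed by any base. It was found in 8 of the 35116 windows (0.0228%), in 8 genes: FTL, ALAS2, CCDC116, CEP43, CTBP1, F10, LOC105376212 and PGLYRP2. ALAS2 is the first enzyme of heme synthesis in erythroid cells. Such a match is a description of letters that can pair, not a shown element. The loop letters CAGTG alone were found in 6.48% of the windows. The match in FTL begins after the first 32 bases of the window. Printed below are bases 27 to 50 after the start, with the loop in capitals. The window ends there, so any part of an element beyond it is not shown.
FTL element, chr19:48965335-48965358, plus strand: ctcttgcttcaaCAGTGTttggac
No match was found in the window of SLC40A1, which says only that these letters are not within its first 50 bases.

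All values below are log2 signals on the scale deposited by the authors, so a difference of 1 is a doubling of signal, and differences are 24 h minus 0 h. A gene counts as changed where its p-value from limma, adjusted by Benjamini-Hochberg over all 20893 probe sets, is under 0.05. By that test 197 probe sets changed, 0.943% of those tested, 172 of them higher at 24 h and 25 lower. Arrays of the same time point correlated at 0.98 (0 h) and 0.99 (24 h), and arrays of different time points at 0.97 to 0.98. Erythroid markers were read in all 4 arrays: the 7 measured of 11, including GATA1, KLF1, HBE1 and HBZ, were above the dim line of 5.70, which is the 95th percentile of 348 olfactory receptor genes. Of these 7, 6 were also above 7.56, the 95th percentile of the array's negative controls, in all arrays. Of the markers of other cells, the 5 measured lymphocyte markers reached at most 7.55, with CD79A above the dim line in all arrays and CD2 and MS4A1 below it in all arrays. Of the 6 measured monocyte and granulocyte markers, S100A8 and S100A9 were also below it in all arrays. Only LYZ was above it in all arrays, and it reached 12.3. Of 7 markers of epithelium, fibroblasts and endothelium, EPCAM, KRT8 and COL1A2 were above the dim line in all arrays, and CDH1, COL1A1 and CDH5 were below it in all arrays. The highest value among these 7 was 14.4, so markers of other cells also passed the dim line. The part of other cells in the results was not tested.

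Among the iron genes the clearest differences were in 1 gene each for export, for storage and for the reduction of endosomal iron. SLC40A1 and FTL were measured at higher levels after 24 h of hemin and STEAP3 at a lower level, with intervals that leave out 0, but 0 of the 8 genes passed the adjusted test by limma. At an unadjusted p under 0.05, limma gave 2 higher genes and 1 lower gene, against 6.28% of all probe sets higher and 6.62% lower. The methods' own test, which takes each probe set's own variance, also gave 2 higher and 1 lower at that level and 0 after adjustment. A limma fit with a trend and robust variance called 2, SLC40A1 and FTL, where it called 2.61% of all probe sets. The smallest difference called with 2 arrays per time point was 1.63 on the log2 scale, in a higher probe set. All 8 genes differed by less than this. A call also depends on the spread of each probe set, so no fixed limit of size follows. All 8 genes were above the dim line in all 4 arrays, and also above 7.56, the 95th percentile of the array's negative controls.

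**Figure D1:**
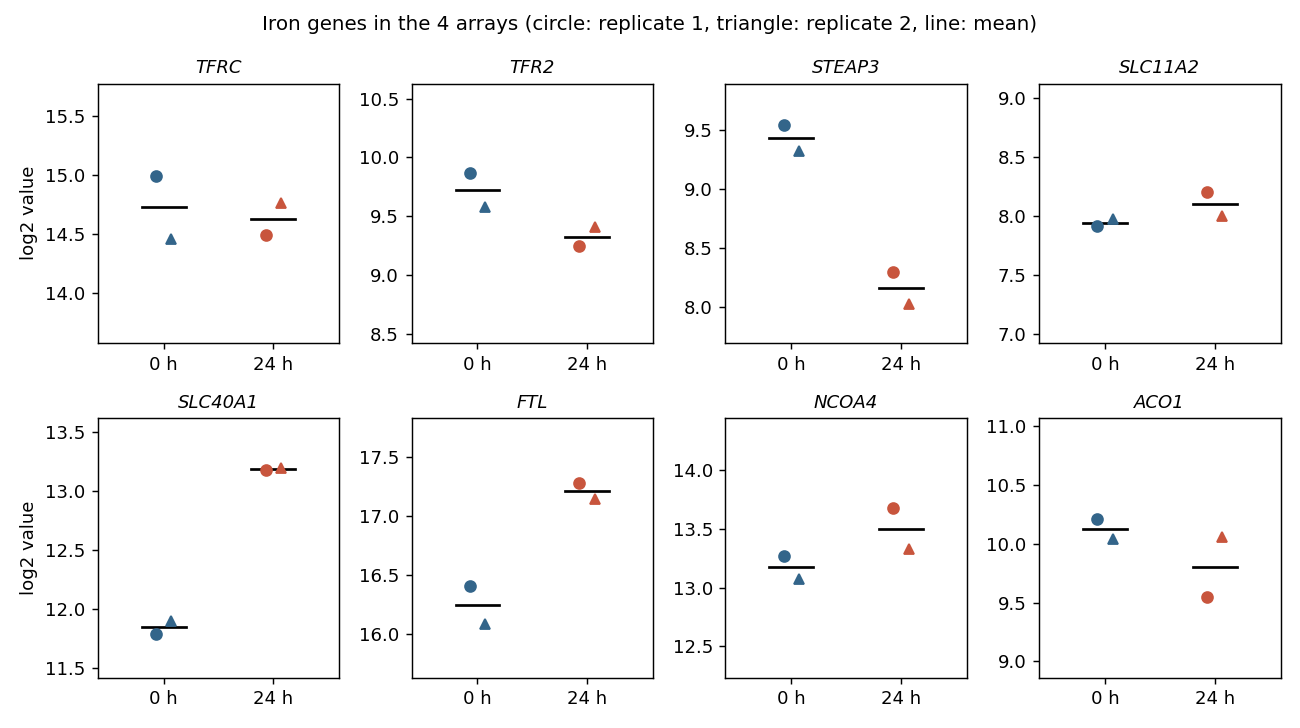
Log2 value (y axis) of the 8 iron genes in each of the 4 arrays, by hours of hemin (x axis), with circles for replicate 1, triangles for replicate 2 and a line at the mean; each panel spans the same height in log2 units around its own gene. In SLC40A1 both arrays at 24 h lie 1.28 above the higher array at 0 h, in STEAP3 both lie 1.03 below the lower one, and in TFRC and ACO1 the time points overlap.

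Uptake starts with TFRC, transferrin receptor 1, which brings transferrin-bound iron into the cell. Its log2 values were 14.99 and 14.46 at 0 h and 14.49 and 14.76 at 24 h. The 24 h arrays lay between the 0 h arrays, so no direction could be read. The means were 14.73 ± 0.37 (SD, n = 2) and 14.63 ± 0.19 (SD, n = 2), a difference of −0.10 (SE 0.33, 95% interval −0.85 to 0.65), with an adjusted p of 0.93 by limma. The interval leaves room for a moderate change either way. The sign itself turned with the array left out, to 0.16 without 0 h replicate 1 and to 0.03 without 24 h replicate 1. In bulk RNA of this kind, fewer cells with a transcript and less of it per cell cannot be told apart.

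TFR2, the second transferrin receptor, is made mainly in liver and erythroid cells, where it binds transferrin more weakly and acts as an iron sensor and as a partner of the erythropoietin receptor. It measured 9.87 and 9.58 at 0 h and 9.25 and 9.41 at 24 h. The 24 h arrays were the lower ones, but the gap of 0.17 between the time points was smaller than the 0.28 between the 0 h arrays. The difference was −0.40 (SE 0.31, 95% interval −1.10 to 0.31, adjusted p = 0.65 by limma).

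STEAP3 is the endosomal ferrireductase of erythroid precursors, which turns the ferric iron released from transferrin into the ferrous form. Its values were 9.54 and 9.32 at 0 h and 8.29 and 8.02 at 24 h. Both 24 h arrays were far below both 0 h arrays, with a gap of 1.03 against ranges of 0.22 and 0.27 within the time points. The means were 9.43 ± 0.15 (SD, n = 2) and 8.16 ± 0.19 (SD, n = 2). The difference of −1.27 (SE 0.32, 95% interval −1.98 to −0.57) corresponds to a 2.42-fold lower signal. Its unadjusted p in the limma fit was 0.00267 and its adjusted p 0.117, so it did not pass the test over all probe sets. It was the only member of the 8 that was lower by more than 1 log2 unit.

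SLC11A2 is DMT1, the transporter that moves ferrous iron out of the endosome. It is made in forms with and without an iron-responsive element at the end of the mRNA, and the probe set is annotated to 9 transcripts, so these forms are not told apart here. The values were 7.92 and 7.98 at 0 h and 8.21 and 8.001 at 24 h, all above the negative controls at 7.56. The time points were separated by only 0.03, less than the range within either. The difference was 0.16 (SE 0.31, 95% interval −0.54 to 0.85, adjusted p = 0.88 by limma).

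SLC40A1 encodes ferroportin, the iron exporter of vertebrate cells. It measured 11.79 and 11.90 at 0 h and 13.18 and 13.19 at 24 h. The 24 h arrays were nearly identical and lay 1.28 above the higher 0 h array. The means were 11.84 ± 0.08 (SD, n = 2) and 13.19 ± 0.01 (SD, n = 2). The difference of 1.34 (SE 0.31, 95% interval 0.65 to 2.03) is 2.54-fold in signal, with an interval of 1.57-fold to 4.09-fold. It was the largest difference of the 8 genes, with an unadjusted p of 0.00158 and an adjusted p of 0.0859 in the limma fit. With the trend and robust variance its adjusted p was 0.0127.

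The 3 named genes whose centred values over the 4 arrays lay nearest to those of SLC40A1 were EMC3, ACBD3 and IFT56. Their root mean square distances were 0.037, 0.053 and 0.058 log2 units, and their own differences were 1.35, 1.34 and 1.26. EMC3 is a subunit of a complex that inserts proteins into the endoplasmic reticulum membrane, ACBD3 is a Golgi scaffold protein and IFT56 a protein of intraflagellar transport. With 4 arrays in 2 groups, this measure mostly captures the size of the difference.

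FTL encodes the light chain of ferritin, the shell that stores iron as a mineral core, and the stretch with its hairpin match is printed above. Its probe set read 16.41 and 16.09 at 0 h and 17.28 and 17.15 at 24 h. Both 24 h arrays were higher, by at least 0.74, and the ranges within the time points were 0.32 and 0.13. The means were 16.25 ± 0.23 (SD, n = 2) and 17.21 ± 0.09 (SD, n = 2). The difference of 0.97 (SE 0.32, 95% interval 0.26 to 1.68) is 1.96-fold, with an interval of 1.20-fold to 3.20-fold. In the limma fit the unadjusted p was 0.0128 and the adjusted p 0.226, and with the trend and robust variance the adjusted p was 0.0127. This value has a pair of limits: FTL has processed pseudogenes of near-identical sequence that its probes could also read, and its signals stand close to the highest value on any array, 18.09. The part of either in the difference was not tested.

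NCOA4 is the receptor that delivers ferritin to autophagosomes and so frees stored iron. It measured 13.27 and 13.07 at 0 h and 13.68 and 13.32 at 24 h. The 24 h arrays were the higher ones by only 0.06, well within the ranges of 0.19 and 0.35 of the time points. The difference was 0.33 (SE 0.32, 95% interval −0.39 to 1.05, adjusted p = 0.72 by limma).

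ACO1 encodes IRP1, which is a cytosolic aconitase when it holds an iron-sulfur cluster and binds iron-responsive elements when it does not. Its values were 10.21 and 10.04 at 0 h and 9.55 and 10.05 at 24 h. One 24 h array was low and the other lay between the 0 h arrays. The difference was −0.32 (SE 0.33, 95% interval −1.06 to 0.42, adjusted p = 0.74 by limma). IRP1 changes its role without a change in its mRNA, which these values do not address.

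**Figure D2:**
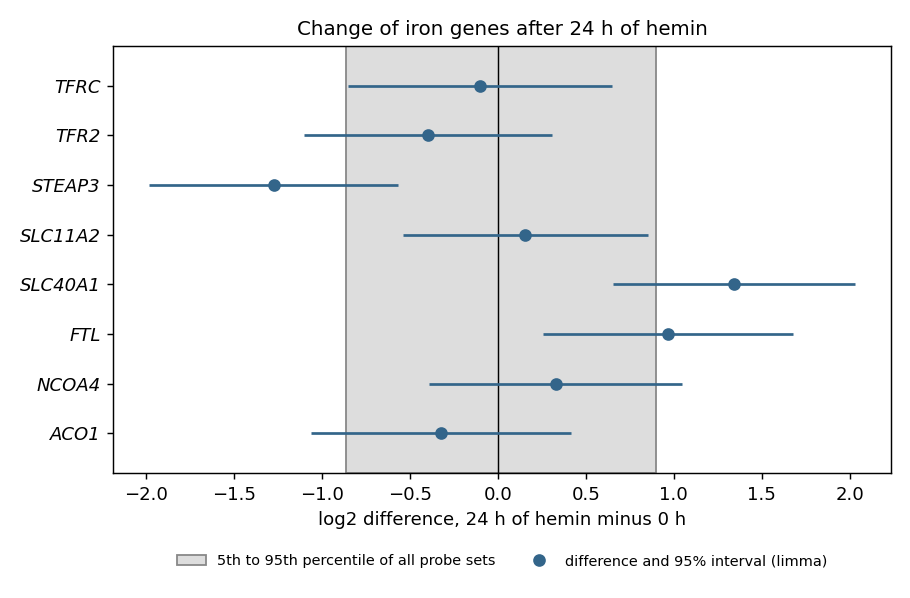
Log2 difference (x axis, 24 h of hemin minus 0 h) of the 8 iron genes (y axis), with points for the limma estimate, bars for its 95% interval and a gray band from the 5th to the 95th percentile of the differences of all probe sets, −0.86 to 0.90. The intervals of STEAP3 (−1.98 to −0.57), SLC40A1 (0.65 to 2.03) and FTL (0.26 to 1.68) leave out 0 and their points lie outside the band.

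Across the 8 genes the arrays of the time points did not overlap in 6, of which SLC40A1, FTL, NCOA4 and SLC11A2 were higher at 24 h and STEAP3 and TFR2 lower. Over all probe sets 43.6% did not overlap. The gaps ran from 0.03 in SLC11A2 to 1.28 in SLC40A1, so for SLC11A2, NCOA4 and TFR2 the separation was smaller than the wider of the ranges within a time point. The median difference of the 8 genes was 0.03, beside −0.06 over all probe sets, with differences of both signs. By role, the export gene SLC40A1 and the storage gene FTL had positive differences of 1.34 and 0.97. Of the uptake genes, STEAP3, TFR2 and TFRC had differences below 0 (that of TFRC turned with the array left out) and SLC11A2 one of 0.16. None of the 8 passed the adjusted test, and a pattern by role was not tested.

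**Figure D3:**
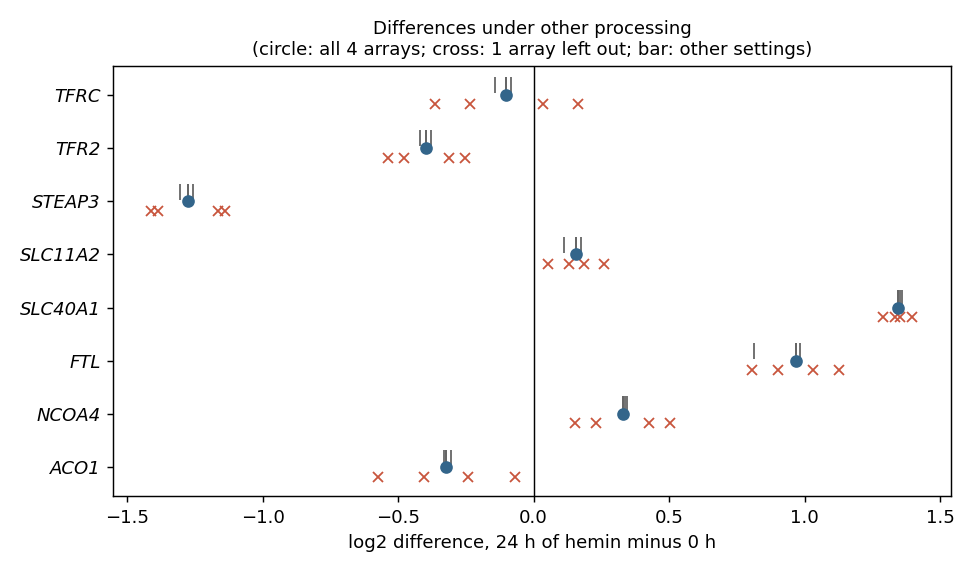
Log2 difference (x axis, 24 h of hemin minus 0 h) of the 8 iron genes (y axis) with all 4 arrays (circle), with 1 array left out (cross) and under the other processing settings (bar). STEAP3 stayed between −1.41 and −1.14, SLC40A1 between 1.29 and 1.40 and FTL between 0.81 and 1.13, while TFRC ran from −0.37 to 0.16, on both sides of 0.

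The wider iron pathway was read from 7 lists of 79 genes, of which 69 had a named probe set and 52 at least 1 array above the dim line. GDF15 alone, 1 of the 69 (1.45%), passed the test, beside 0.943% of all probe sets. An unadjusted limma p under 0.05 was reached by 4 genes higher (5.80%, GDF15, ACVR1, TAX1BP1 and PFN2) and by 1 lower (1.45%, BOLA3). Over all probe sets these shares were 6.28% and 6.62%, so neither share of the lists was above that of the array as a whole. The median difference over the 69 was 0.06, beside −0.06 over all probe sets.

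The partners of the transferrin cycle, which include transferrin, HFE, other STEAP reductases and factors that recycle the receptor, had 9 measured of 10 with 0 called, and differences of −0.51 to 0.63 (median 0.06). Among those above the dim line in an array the largest was in MCOLN1, a cation channel of late endosomes and lysosomes that can release iron. It read 10.31 and 10.19 at 0 h and 11.30 and 10.45 at 24 h, so only 1 of the 24 h arrays stood clearly apart (difference 0.63, SE 0.36, adjusted p = 0.52 by limma). Iron entry and oxidation outside this cycle had 11 of 11 measured with 0 called, from −0.10 to 0.64 (median 0.18). Its largest difference was in SLC39A8, the metal transporter ZIP8, with 10.45 and 10.79 at 0 h and 11.45 and 11.06 at 24 h (0.64, SE 0.33, adjusted p = 0.46). Both lists had 0 genes at an unadjusted p under 0.05.

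Iron chaperones, ferritin turnover and IRP2 degradation had 12 of 14 measured with 0 called, from −0.61 to 1.19 (median −0.01), and 1 of them reached an unadjusted p under 0.05, with a higher value. This was TAX1BP1, an autophagy receptor that takes part in ferritin turnover, named after its values were seen, with 11.50 and 12.32 at 0 h and 12.62 and 13.01 at 24 h (difference 0.91, SE 0.37, adjusted p = 0.34 by limma). The largest difference, which did not reach that level, was in HERC2, a ubiquitin ligase that takes NCOA4 to degradation when iron is high. Its 0 h arrays lay far apart, at 9.62 and 7.75, and its 24 h arrays read 10.02 and 9.72, so the difference of 1.19 (SE 0.53, adjusted p = 0.39) rests largely on 1 array, and ran from 0.25 to 2.12 as arrays were left out. FBXL5, the iron-sensing subunit of the ligase that degrades IRP2, is named outside the rule for its role. It read 8.32 and 8.30 at 0 h and 8.23 and 8.11 at 24 h, a difference of −0.14 (SE 0.31).

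The lists for iron-sulfur clusters had medians below 0. Mitochondrial iron import and cluster assembly had 14 of 18 measured with 0 called, from −1.51 to 0.34 (median −0.20), and cytosolic cluster assembly 8 of 9 with 0 called, from −0.70 to 0.48 (median −0.23). BOLA3, which helps to hand mitochondrial clusters to enzymes such as lipoate synthase, measured 13.04 and 13.29 at 0 h and 11.63 and 11.67 at 24 h. Both 24 h arrays were lower by more than 1 log2 unit, a difference of −1.51 (SE 0.31, 95% interval −2.21 to −0.81, 2.85-fold lower in signal). Its adjusted p by limma was 0.0629, so it did not pass, and over the alternatives it ran from 0.00716 to 0.427. It was under 0.05 where only brighter probe sets were tested (0.0394), with 1 probe set per gene (0.0471), with the trend and robust variance (0.00716) and with the replicate block (0.0386). It was above 0.05 under the other scalings (0.0581 and 0.051), with array weights (0.063), by the methods' own test (0.427) and with any array left out (0.0996 to 0.181). In the cytosolic list the largest difference was in CIAPIN1, an electron carrier for cluster assembly, with 11.01 and 10.87 at 0 h and 10.08 and 10.41 at 24 h (−0.70, SE 0.32, adjusted p = 0.40).

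Of the genes of systemic iron control, 10 of 11 were measured, and the median difference was 0.14, from −0.51 to 2.40. GDF15, a stress-induced cytokine made by erythroblasts when red cell formation fails, rose. It measured 5.40 and 5.88 at 0 h and 8.43 and 7.65 at 24 h, with an adjusted p of 0.0192 by limma (difference 2.40, SE 0.37). By the methods' own test its adjusted p was 0.519, so it was not called there. One of the 0 h arrays was below the dim line, so the rise was at least 4.75-fold with that value raised to the line, and at least 1.39-fold against the level of the negative controls. The call was lost without 0 h replicate 1 (adjusted p = 0.147) and without 0 h replicate 2 (0.105). ACVR1, a BMP receptor of the hepcidin pathway, named after its values were seen, read 8.61 and 7.47 at 0 h and 9.07 and 9.43 at 24 h, with 0 h arrays that lay far apart (difference 1.21, SE 0.41, adjusted p = 0.24 by limma). Its lower 0 h array was below the level of the negative controls, 7.56. ERFE, the erythroid hormone that lowers hepcidin, named outside the rule for its role, read 7.63 and 7.59 at 0 h and 7.27 and 7.60 at 24 h, a difference of −0.17 (SE 0.32). The lower 24 h array was below the level of the negative controls and the other arrays were only just above it.

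Other mRNAs with an iron-responsive element had 5 of 6 measured with 0 called, from −0.47 to 0.96 (median 0.03). The largest difference was in PFN2, an actin-binding protein, which read 4.62 and 5.41 at 0 h and 6.23 and 5.71 at 24 h (fitted difference 0.96, SE 0.37, adjusted p = 0.31 by limma). Both 0 h arrays were below the dim line, which leaves a bound of at least 1.21-fold, and all 4 arrays were below the negative controls, against which no bound can be given. ALAS2, which also had the hairpin match, was named after its values were seen. It read 12.59 and 11.23 at 0 h and 12.63 and 11.24 at 24 h. Both arrays numbered 1 were higher than both numbered 2 at either time, by over 1 log2 unit, and the difference between times was 0.03 (SE 0.54, 95% interval −1.19 to 1.24).

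**Figure D4:**
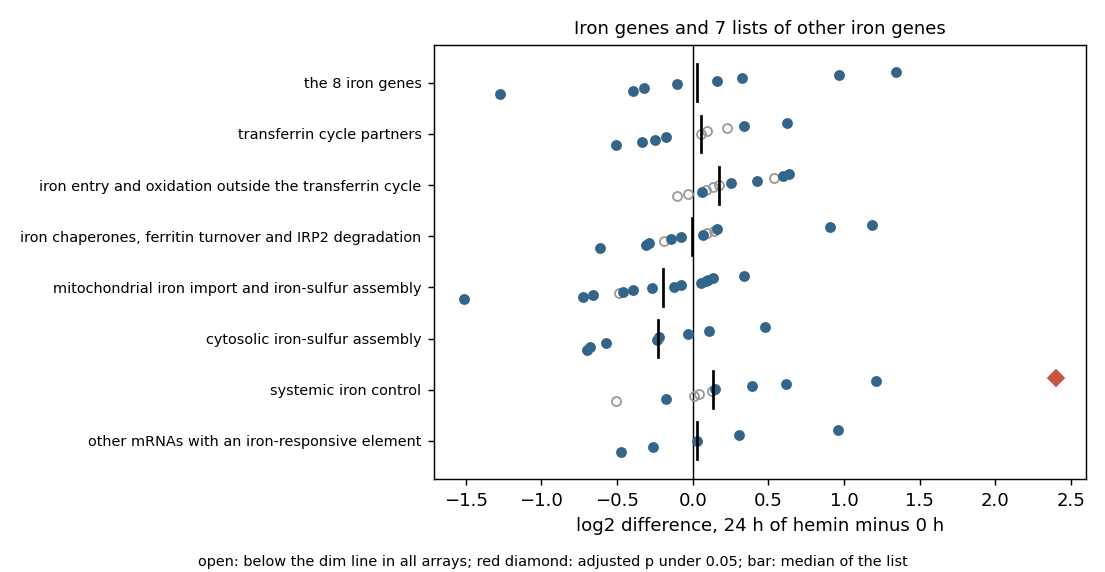
Log2 difference (x axis, 24 h of hemin minus 0 h) of each measured gene in the 8 iron genes and the 7 lists (y axis), with a bar at the median, open circles for genes below the dim line in all arrays and a diamond for an adjusted p under 0.05. The only diamond is GDF15 at 2.40, and the list medians run from −0.23 to 0.18.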

How the data were processed

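Total RNA of untreated K562 cells (0 h) and of cells treated for 24 h with 50 µM hemin was read on 4 Human Clariom S arrays, which the labels put into 2 groups of 2. The deposited values are log2 signals that the authors obtained with RMA in Affymetrix Expression Console (background correction, log2, quantile normalization), and the authors tested them in Partek. The submitters' processing notes name these tools. Tool versions and genome build: not given in the sources used here. No further scaling was applied, and 0 columns were left unused.

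Control rows (2903) and unmapped transcripts (555) were left out of 24351 rows. Genes were named from the platform annotation, and 3188 of the 20893 tested probe sets are unnamed here. Time points were compared with limma 3.58.1 under R 4.3.3 (24 h minus 0 h, two-sided, no covariate, Benjamini-Hochberg over all probe sets). The fit was also run on data simulated with independent errors and variances from its own model. That run cannot show whether the replicates are independent. Arrays have no read depth, and their number (2 at each time) limits the precision, with 2 residual and 7.47 prior degrees of freedom.

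The 10 iron genes and the gene lists were chosen with earlier results of these data known. Named genes are all members, in each list up to 3 called genes or the 1 with the largest difference above the dim line, and the 3 genes nearest to the member with the largest difference. Promoter sequences are from RefSeq, GRCh38.p14. Alternatives covered scaling (a second quantile normalization, centring on the median), the probe sets tested (above the dim line, or 1 for each gene), the variance (trend and robust, array weights, the methods' ANOVA), a replicate block, a threshold of 0.10 and each array left out.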

Additional observations from a re-analysis of the deposited data

How the results depend on the processing

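The count of changed probe sets, 197, was 546 with the trend and robust variance, 418 at a threshold of 0.10 and 0 by the methods' ANOVA after adjustment, and ran from 27 to 392 as arrays were left out. It was 280 of the 11491 probe sets above the dim line, and 265 of 17687 with 1 probe set per named gene. With the replicate block it was 429. No source says that the numbers mark shared cultures, and the deviations of same-numbered arrays correlated at −0.0032 over all probe sets, with 2 arrays per group too few to settle it. No iron gene was called with the block. Of the 8 iron genes, 0 were called, but 2 (SLC40A1 and FTL) with the trend and robust variance and 1 (SLC40A1) at a threshold of 0.10. Of the 69 genes of the pathway lists 1 was called, but 2 (GDF15 and BOLA3) with the dim filter, with 1 probe set per gene, with the trend and robust variance, with the replicate block and at a threshold of 0.10, 0 by the methods' ANOVA, and 0 to 1 as arrays were left out (0 without either 0 h array). Where 2 list genes were called, the count over all probe sets was also above 197. The differences of TFRC ran from −0.37 to 0.16 and those of ALAS2 from −0.67 to 0.72 as arrays were left out, turning direction in 2 of 4 cases each. The causes were not tested. Of 104 values of the iron genes under alternatives, 99 kept their direction and their side of the threshold, 3 passed it and 2 turned. Adjusted p over the alternatives ran from 0.0127 to 0.392 for SLC40A1, from 0.0127 to 0.681 for FTL and from 0.0657 to 0.482 for STEAP3. Each iron gene has 1 probe set, so the alternative of another probe set was not run, and no iron gene lies below either floor, so the floor leaves their values as they are. Signals near the dim line, as in GDF15 and PFN2, give lower bounds only.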
